A study of Saccharomyces cerevisiae with 6 samples.

Results

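The respiration-deficient yeast FPL-YSX3P and its respiring parent YSX3 were each measured on xylose and on glucose, and the question was how the xylose response differed between them. Both strains carry the Pichia stipitis genes XYL1, XYL2 and XYL3, which give baker's yeast a xylose reductase, a xylitol dehydrogenase and a xylulokinase. For every gene the response is the log2 intensity on xylose minus that on glucose, and the response of the parent was subtracted from that of the petite mutant. A positive difference therefore means a response that was more positive in the petite. The comparison rests on 4 of the 6 Affymetrix yeast arrays of the series, with 1 array per condition, and on 4996 of the 5656 yeast genes that the array names. With 1 array per condition no test was possible, and genes were called by size, at a difference of at least 2-fold (1 or more, or -1 or less, on the log2 scale).

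The 4 conditions were all in the MATalpha strain background with XYL1 at leu2, XYL2 at ura3 and XYL3 in a Ty3 element, in rich YP medium. The petite xylose sample is FPL-YSX3P that grew on glucose to an OD600 of 1, was moved into xylose medium and was sampled after 24 h. The petite glucose sample is the same mutant on glucose, harvested at that OD600. The aerobic xylose and aerobic glucose samples are YSX3 grown on 20 g/L of either sugar, as 200 ml cultures in flasks of 1000 ml with shaking at 300 rpm, up to an OD600 of 1. The mutant is a single derivative of the strain. The labels do not give how it was made, its sugar amounts or its flasks. The parent thus grew on xylose while the petite was transferred to it, and loss of respiration and the transfer cannot be told apart in any value below.

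Petite yeast cells lack a working respiratory chain, usually because mitochondrial DNA was lost or damaged, and live by fermentation. In respiring cells, glucose represses the genes for using other carbon sources, for the tricarboxylic acid (TCA) cycle and for respiration, and this repression eases when glucose is absent. Cells with defective mitochondria are known to signal back to the nucleus through the retrograde pathway, whose targets CIT2, DLD3, PYC1, ACO1 and IDH2 supply glutamate precursors.

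The arrays matched the petite label at most of the mitochondrial genes that could be read. COX1, a cytochrome oxidase subunit encoded by mitochondrial DNA, lay at the floor on both petite arrays, against 1385 on xylose and 958 on glucose in the parent. OLI1, an ATP synthase subunit of the mitochondrial genome, was also at the floor on both petite arrays, against 2268 and 2300.1 in the parent. COB, ATP6 and ATP8 showed the same arrangement at lower intensity, with parental values between 81.7 and 134. COX3 went the other way, with 203 on xylose and 136 on glucose in the petite and the floor on both parental arrays, and COX2 and VAR1 were at the floor throughout. None of these 8 genes could be compared. The MATalpha label was met by MF(ALPHA)1, MF(ALPHA)2, STE3 and SAG1, which were above the floor on all 4 arrays, whereas STE2 and BAR1 of a cells stayed at 89.2 or less. Not all a-cell genes were that low. STE6 read 131 and 109.9 in the petite, against 77.8 and the floor in the parent, and MFA2, an a-factor gene, read between 135 and 182. MFA1, the other a-factor gene, read between 486 and 1238.

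Between 88.3% and 90.5% of the genes lay above the floor of 61.4 intensity units on each of the 4 arrays. The median difference over the 4996 genes compared was -0.07, and 325 of them had an array at the floor and gave only a bound, written as at least or at most. Where 202 genes had several probe sets, these differed from each other with a pooled SD of 0.41 for the difference, 0.39 for the petite response and 0.21 for the parental response. That spread is not a replicate error, since no culture was repeated. Of 163 named genes whose difference was at least 2-fold, 29 came to less than 2-fold under at least 1 alternative setting. Besides those given below with such a value, these included ACS2, ANB1, CLN1, ERG5, FRE1, FTR1, HSP82, IDP2, MF(ALPHA)2, NRG2, PHO90, RPS7A, STF1 and TKL1. Several probe sets in one region of the arrays' numbering behaved alike. A stretch of consecutively numbered probe sets that ends at number 9000, picked out after the values were seen, held 847 genes and 108 of the 227 genes called higher, a rate of 12.8% against 2.87% of the 4149 genes elsewhere. The same stretch held 79 of the 108 genes that were at least 2-fold lower on xylose in the parent, or 9.1% of its genes against 0.679% of those elsewhere. Neighbouring probe sets there resembled each other most on the aerobic xylose array, with a correlation of 0.35 between neighbours after subtraction of the gene mean, against 0.05 to 0.12 on the other 3 arrays. Its part in the results was not tested, so counts are given with and without the stretch and its genes are marked. Outside the stretch the calls also varied with the numbering. Of the 1069 genes with the highest numbers, 7.3% were called lower and 1.59% higher, with a median difference of -0.26. For the 564 genes between these and the stretch the values were 6.74%, 2.48% and -0.16. Below the stretch they were 4.13%, 3.5% and -0.04. Genes above the stretch, such as ACO1 and SSA2, are not marked. Some named genes outside the stretch also have consecutively numbered probe sets. AQY3 and DAK2, ACO1 and MET17, and SNZ1 and SNO1 are such pairs with calls in the same direction. TIP1 and BAP2 are such a pair with opposite calls. With a running median along the number removed, 236 genes were called lower.

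**Figure D1:**
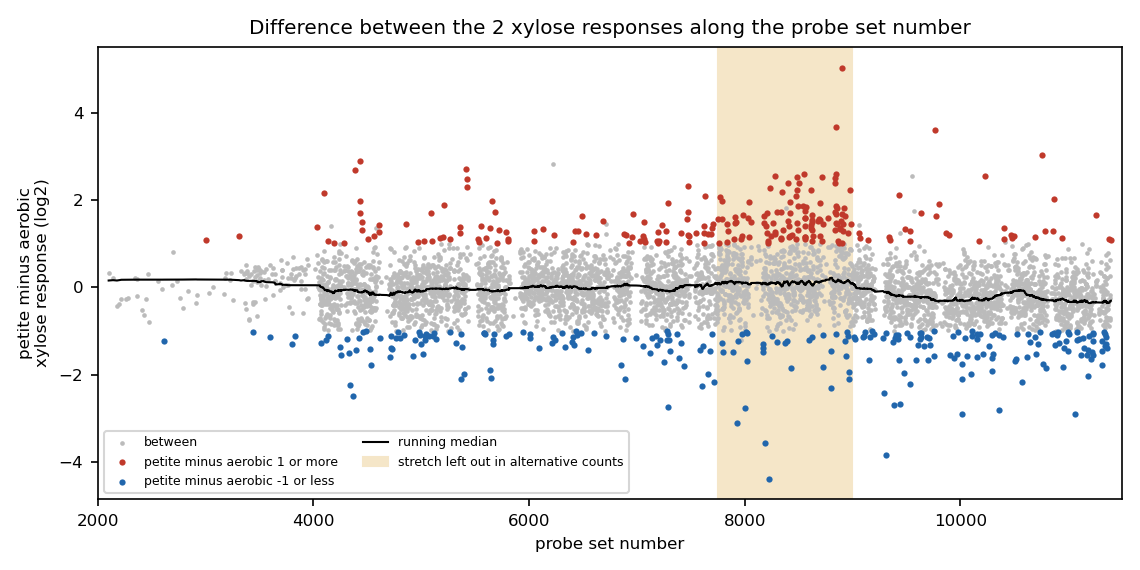
The vertical axis gives the petite minus aerobic xylose response in log2 units for each of the 4996 genes, the horizontal axis the number of its probe set, and the line is a running median. Red points (227 genes) are at 1 or more and blue points (253 genes) at -1 or less; grey points beyond these limits are bounds that do not reach them. Red points crowd into the shaded stretch that ends at number 9000.

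Across the genome, 227 genes had a higher xylose response in the petite than in the parent (4.54% of the 4996 compared) and 253 a lower one (5.06%). The difference was below 0 in 2817 of the 4996 and above 0 in 2179. These shares are the background for all list counts below. Without the stretch the numbers were 119 (2.87%) and 220 (5.3%) of 4149. The lower calls came mostly from the petite side. Of the 253 genes, 142 were at least 2-fold lower on xylose in the petite and within 2-fold in the parent, while 37 were at least 2-fold higher in the parent and within 2-fold in the petite. Another 10 were higher in both pairs but less so in the petite, 2 were lower in both, 2 moved in opposite directions and 60 passed 2-fold in neither pair. Of the 227 higher calls, 92 were at least 2-fold higher on xylose in the petite alone and 51 at least 2-fold lower in the parent alone. Without the stretch these became 65 and 7, so that parental decreases made up few of the remaining 119. The rates of single-pair calls outside the stretch were 5.39% higher and 5.57% lower in the petite, and 0.679% lower in the parent.

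The 2 pairs share no array, so their responses can be set against each other. Of 160 genes at least 2-fold higher on xylose in the parent, 85 were also higher in the petite (53.1% of the parental genes, 30.6% of the 278 petite genes), 73 stayed within 2-fold and 2 were lower. The background rates for a higher call were 5.76% in the petite pair and 3.13% in the parental pair. Lower calls in the parent rested largely on the stretch. Of 105 genes lower on xylose in the parent, 22 were lower in the petite (21.0% of the parental genes, 8.06% of the 273 petite genes), 75 within 2-fold and 8 higher, with background rates of 5.28% in the petite pair and 2.1% in the parental pair. Outside the stretch only 27 genes were lower in the parent, of which 13 were lower in the petite, 13 within 2-fold and 1 higher. The petite in turn had 249 lower genes that the parent kept within 2-fold, and 223 of these lie outside the stretch.

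**Figure D2:**
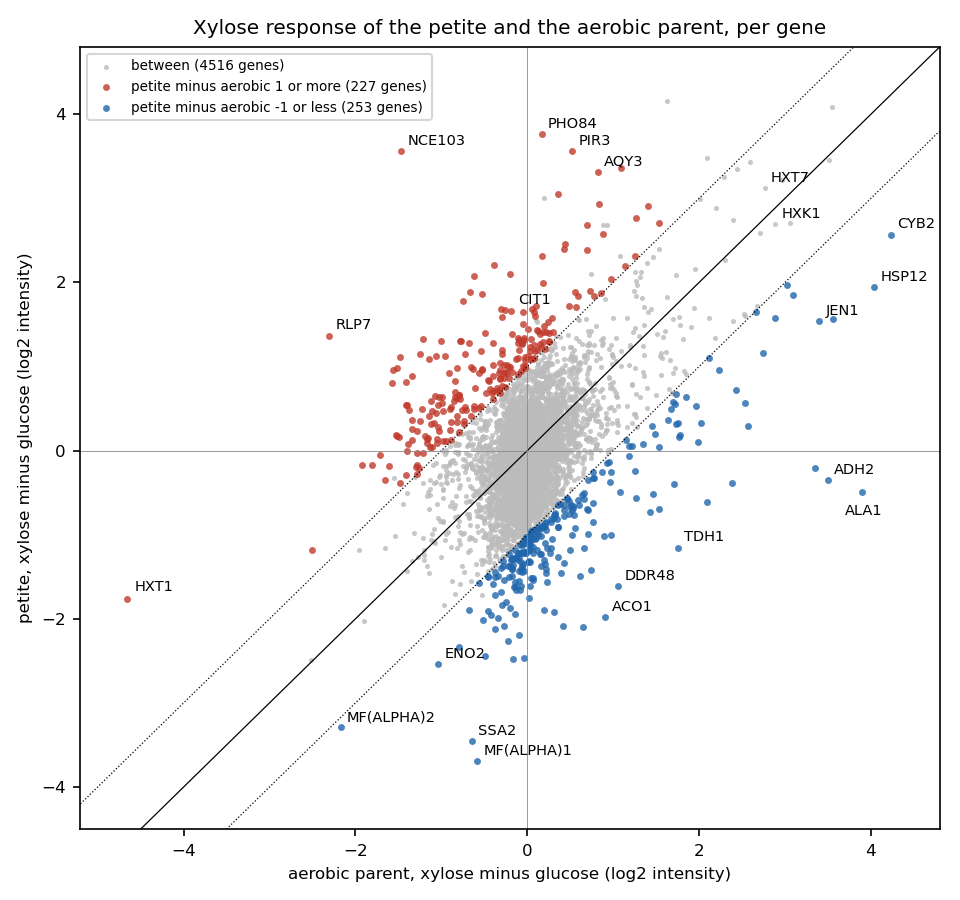
Each point is 1 of the 4996 genes, with the xylose minus glucose difference of the petite on the vertical axis and that of the aerobic parent on the horizontal axis, both in log2 intensity. The solid line marks equal responses and the dotted lines a 2-fold difference between them, above which genes are red (227) and below which they are blue (253); grey points past a dotted line are bounds that do not reach the limit.

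Some glucose-regulated genes of sugar entry had similar responses in both pairs, while others, among the transporters and regulators of the next paragraph, did not. HXK1, the hexokinase that glucose represses, read 3367 on xylose and 522 on glucose in the petite, against 2454 and 331 in the parent. The responses of 2.69 in the petite and 2.89 in the parent left a difference of -0.20. Its size is below the pooled SD of 0.41 between probe sets, which is not a replicate error. MIG2, a repressor that glucose induces, was lower on xylose by nearly the same amount in both strains, with 154 and 324 in the petite and 150.4 and 320.2 in the parent, a difference of 0.02. For HXT7, a high-affinity transporter gene nearly identical to HXT6, the values were 5349 and 616 in the petite and 3385 and 498 in the parent, a difference of 0.35. HXK2, the main hexokinase on glucose, was slightly lower on xylose in both, with responses of -0.55 in the petite and -0.40 in the parent.

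Several hexose transporters differed between the pairs. Of 12 compared, with HXT7 among them, 5 had a response at least 2-fold higher in the petite, 0 a lower one and 7 neither. The median difference was 0.42, or 1.32 with the floor set at the 40th percentile of the arrays. None of the 12 lies in the stretch. HXT1, the low-affinity transporter used at high glucose, read 245 on xylose and 830.4 on glucose in the petite, against 74.4 and 1882 in the parent, where it came close to the floor. Its response was -1.76 in the petite and -4.66 in the parent, a difference of 2.90. HXT3, also a low-affinity transporter, showed a smaller gap in the same direction, with 583 and 1321 against 263 and 1495, a difference of 1.32. HXT2 and HXT4, which are induced at low glucose, were higher on xylose in the petite. HXT2 read 2949 and 496 in the petite and 1357 and 735 in the parent, and HXT4 459 and 146 against 149.7 and 154. Their differences were 1.69 and 1.70. HXT5, a transporter of slowly growing and starved cells, read 1861 on xylose and 290.2 on glucose in the petite. The parent read 187 and 115, so that petite xylose stood far above the other 3 values, and the difference was 1.98. Under oxygen limitation HXT5 read 756 on xylose and 250 on glucose. Among 21 regulators of glucose repression, NRG1 and MIG3 were called higher and NRG2 lower, all 3 encoding repressors, with a list median of 0.23.

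Genes that respiring yeast switches on to use lactate, acetate and ethanol had a smaller median response in the petite. Of the 22 genes of respiratory fuel use, 6 were called lower and 1 higher, with a median difference of -0.29. The median response of the list was 0.81 in the petite and 1.28 in the parent. ADH2, the alcohol dehydrogenase that consumes ethanol, had the largest gap of the list. It read 1051 on xylose and 1342 on glucose in the petite, against 1612 and 143 in the parent. The xylose values were close and the petite glucose value was as high as they were, so that the difference was -3.85. CYB2, the lactate dehydrogenase of the mitochondrial intermembrane space, was higher on xylose in both strains, at 1106 and 187 in the petite and 1227 and 65.1 in the parent. Its difference of -1.67 shrank to -0.92 with a floor at the 40th percentile, since the parental glucose value is barely above the floor. JEN1, the lactate permease, read 793 and 273 against 1838 and 174, a difference of -1.86. ACH1, a mitochondrial enzyme that moves CoA between succinate and acetate, was almost level in the petite, at 237 and 212 against 1346 and 394 in the parent. CRC1, the carnitine carrier of mitochondria and a gene of the stretch, was the 1 higher call, at 1.20.

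The glyoxylate and gluconeogenesis genes were split. Of 13 compared, 4 were called lower and 2 higher, with a median difference of -0.23. ICL1, isocitrate lyase of the glyoxylate cycle, was level in the petite at 124 on xylose and 116 on glucose, against 289 and 72.8 in the parent, a difference of -1.89. AGX1, which makes glycine from glyoxylate, read 1014 and 341 against 1570.3 and 133, a difference of -1.99. The other lower calls were IDP2, at most -1.06, and the stretch gene MLS1, at -1.13, which was -0.51 with a floor at the 40th percentile. PCK1, the first committed enzyme of gluconeogenesis, was not called at -0.59, with responses of 1.08 in the petite and 1.66 in the parent.

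**Figure D3:**
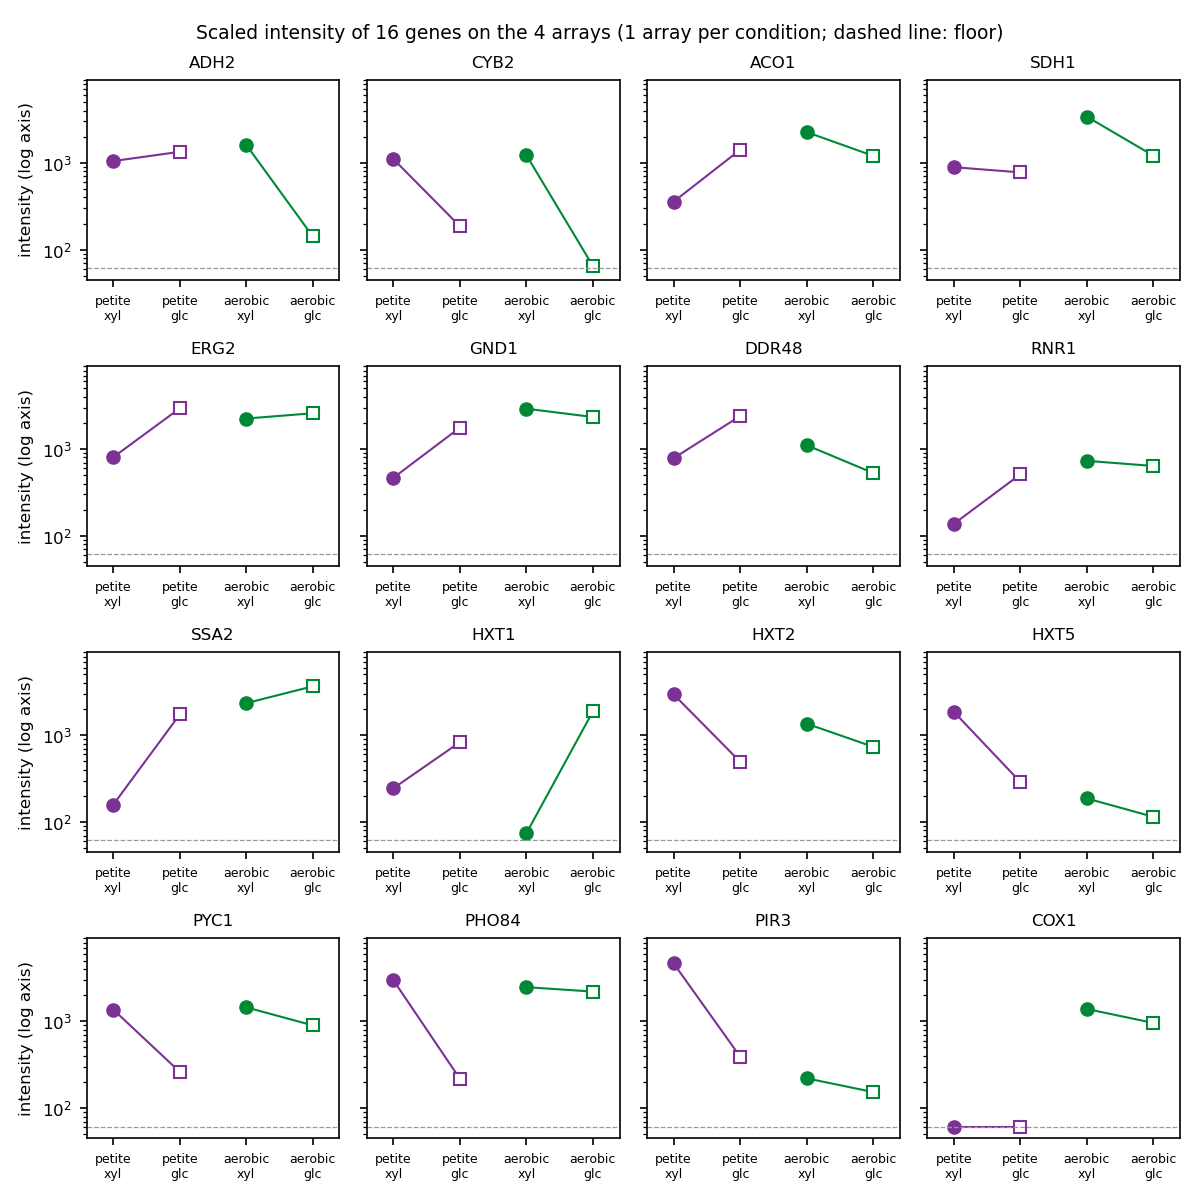
Scaled intensity on a log axis for 16 genes on the petite xylose, petite glucose, aerobic xylose and aerobic glucose arrays, 1 array each, with the 2 arrays of a strain joined by a line and the floor of 61.4 dashed. ADH2 is low on the aerobic glucose array alone, ERG2 and GND1 are low on the petite xylose array alone, HXT5 and PIR3 are high on that array alone, and COX1 lies at the floor in the petite.

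TCA cycle genes had a lower median response in the petite. In the petite 3 of 15 were at least 2-fold higher on xylose and 2 lower, against 5 higher and 0 lower in the parent. For the difference between the strains, 5 were called lower and 1 higher, with a median difference of -0.62, and the median response was 0.20 in the petite and 0.92 in the parent. ACO1, aconitase, read 358 on xylose and 1414 on glucose in the petite, against 2266 and 1206 in the parent. Petite xylose cells thus held the lowest of the 4 values, and the difference was -2.89. IDH2, a subunit of NAD-dependent isocitrate dehydrogenase and a gene of the stretch, had the same order, with 803 and 2205 against 2820.3 and 2144, a difference of -1.85. IDH1, its partner subunit and also a gene of the stretch, was at 0.06. For SDH1, the flavoprotein of succinate dehydrogenase, the petite was nearly level at 893 and 779, while the parent read 3412 and 1214, a difference of -1.29. The other subunits of the enzyme did not share that gap, since SDH2 was at 0.75, SDH3 at -0.67 and SDH4 at -0.18. LSC1 (in the stretch) and LSC2, the subunits of succinyl-CoA ligase, were both called lower, at -1.23 and -1.17.

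CIT1, the mitochondrial citrate synthase, was the exception of the list. It read 3096 on xylose and 976 on glucose in the petite, against 2019 and 2294 in the parent, a difference of 1.85, and it lies in the stretch. CIT2, the peroxisomal citrate synthase and the usual reporter of the retrograde pathway, read 1333 and 669 in the petite and 1381 and 1599 in the parent, a difference of 1.21. PYC1, pyruvate carboxylase, showed the largest petite response of these genes, with 1365 and 262 against 1449 and 898, a difference of 1.69. DLD3, another retrograde target, was lower on xylose in both strains, with 135 and 241 in the petite and 405 and 821 in the parent, and differed by 0.18. Of 11 retrograde genes compared, 3 were therefore called higher (CIT1, CIT2 and PYC1) and 2 lower (ACO1 and IDH2), around a median of 0.19. On glucose, CIT2, DLD3 and PYC1 all read lower in the petite than in the parent. ACO1 and IDH2 read slightly higher there, at 1414 against 1206 and 2205 against 2144.

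**Figure D4:**
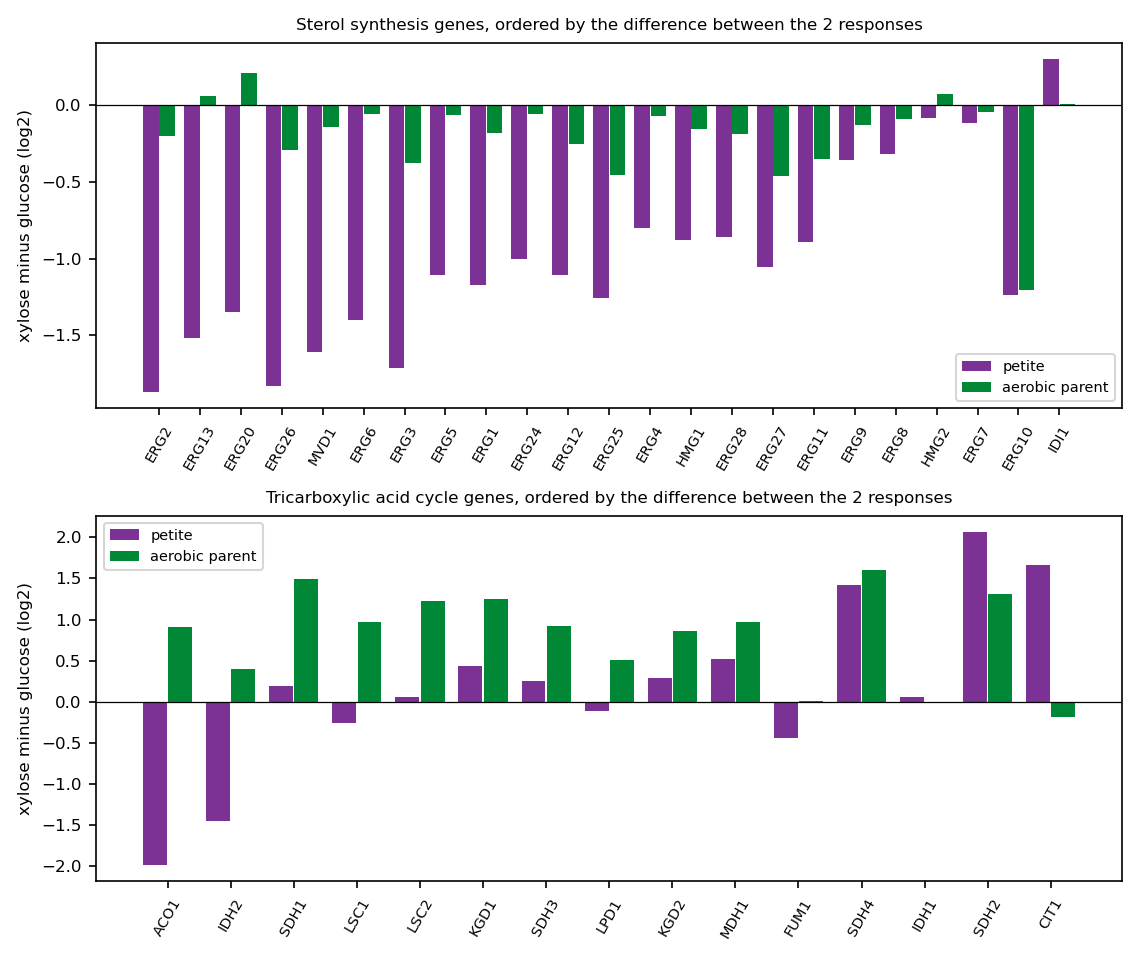
Bars give the xylose minus glucose difference in log2 intensity for the 23 sterol synthesis genes (upper panel) and 15 TCA cycle genes (lower panel), petite on the left of each pair and aerobic parent on the right, 1 array per condition and so without error bars. Sterol genes are lower on xylose mainly in the petite, and TCA genes from ACO1 to MDH1 have higher bars in the parent.

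The respiratory chain itself was not among the differing groups. Of 19 nuclear genes, 0 were called in either direction, the median difference was -0.02, and the responses had medians of 0.73 in the petite and 0.59 in the parent. RIP1, the iron-sulfur protein of complex III, read 1168 on xylose and 569 on glucose in the petite, against 3116 and 2075 in the parent, so that the petite had lower levels on both sugars and a response at least as large. HAP4, the activator subunit that drives these genes, was higher on xylose in both, at 1018 and 260.2 against 824 and 340.1, a difference of 0.69. COX5A (in the stretch) was at 0.77, COR1 at -0.09 and NDI1, the internal NADH dehydrogenase, at -0.42. ATP synthase genes leaned to smaller petite responses, with a median of -0.39. Of 17 genes, 14 were below 0, against 2817 of all 4996 genes. Only STF1, a stabiliser of the inhibited enzyme, was called, at -1.05. The mitochondrial ribosome (73 genes, 2 higher, 1 lower, median -0.13) and protein import (34 genes, 1 higher, 0 lower, median -0.06) stayed near the median of all genes, and all their 4 calls lie in the stretch.

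Genes of the pentose phosphate pathway, through which xylulose enters central metabolism, had a lower median response in the petite. Of 18 compared, 6 were called lower and 1 higher, and 12 had a difference below 0, against 2817 of all 4996 genes. The median difference was -0.77, with median responses of -0.41 in the petite and 0.29 in the parent. GND1, the main 6-phosphogluconate dehydrogenase, read 467 on xylose and 1765 on glucose in the petite, against 2910.0 and 2337 in the parent. SOL3, 6-phosphogluconolactonase, showed the same low petite xylose value, at 253 and 1076 against 1003 and 752. Their differences were -2.23 and -2.50. In the non-oxidative branch, TAL1, transaldolase, read 658 and 1314 against 2105 and 2058, a difference of -1.03 that shrank to -0.61 once a running median along the probe set number was removed. SOL1, a relative of SOL3 and a gene of the stretch, was the higher call, at 2.39. TKL1, the major transketolase, was lower on xylose in both strains and more so in the petite, a difference of -1.06, and TKL2, the minor one, was higher on xylose in both strains but less so in the petite, a difference of -1.70. Of the yeast's own xylose genes, XKS1 was called lower. XKS1, xylulokinase, read 112 and 158 in the petite and 274 and 174 in the parent, a difference of -1.16, while the aldose reductase GRE3 and the xylitol dehydrogenase XYL2 of S. cerevisiae were at -0.75 and -0.59 and were not called. GRE3 read between 376 and 527 on the 4 arrays. The array carries no probe set for the 3 Pichia genes.

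Lower glycolysis and fermentation showed gaps at single isoenzymes. Of 16 glycolytic genes, 3 were called lower and 0 higher, with a median of -0.29. TDH1, the glyceraldehyde-3-phosphate dehydrogenase isoform of slow growth, went in opposite directions, with 638 on xylose and 1419 on glucose in the petite and 489 and 145 in the parent, a difference of -2.91. ENO1 and ENO2 are near-identical enolases whose probe sets need not tell them apart. They were called lower at -1.41 and -1.50. PDC1, the main pyruvate decarboxylase, and the stretch gene ADH1, the main fermentative alcohol dehydrogenase, were bright on all 4 arrays and differed by -0.13 and -0.17. Among 14 fermentation and acetate genes, ACS2, ADH6, ALD3 and PDC5 were called lower and ADH5 higher. PDC5, a pyruvate decarboxylase normally kept low by PDC1, read 195 and 615 in the petite against 278 and 304 in the parent.

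Glycerol genes, which petite cells rely on to reoxidise cytosolic NADH, showed 1 call in 9. DAK2, a dihydroxyacetone kinase, read 909 on xylose and 212 on glucose in the petite, against 119.9 and 138 in the parent, a difference of 2.31. GPD1, the glycerol-3-phosphate dehydrogenase of the synthesis route, was at -0.36 and its paralog GPD2, in the stretch, at 0.40. GUT2, the mitochondrial glycerol-3-phosphate dehydrogenase, was higher on xylose in both strains and missed the limit at -0.96.

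Sterol synthesis genes had a lower median response in the petite. Of the 23 genes, 8 were called lower and 0 higher, and the median was -0.80. A difference below 0 was seen in 22 of them, against 2817 of all 4996 genes, but 15 did not pass the limit, and some lay close to 0, such as ERG10 at -0.03 and ERG7 at -0.07. Without the 3 members in the stretch, 7 of 20 were called and the median was -0.83. In the petite 14 of 23 genes were at least 2-fold lower on xylose, against 1 of 23 in the parent, and the median responses were -1.11 in the petite and -0.14 in the parent. ERG2, a sterol isomerase of the late pathway, read 805 on xylose and 2938 on glucose in the petite, against 2244 and 2581 in the parent. ERG13, which makes HMG-CoA at the start of the mevalonate route, read 601 and 1718 against 2062 and 1974. ERG3, the sterol desaturase, read 1149.6 and 3770.3 against 2915 and 3778. In each of these the petite xylose value was the lowest of 4 and the petite glucose value was close to the parental ones, and the differences were -1.67, -1.58 and -1.34.

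The calls spanned the pathway. ERG20, farnesyl diphosphate synthase, stood at -1.56, ERG26, which removes a sterol carboxyl group, at -1.54, the methyltransferase ERG6 at -1.34, the desaturase ERG5 at -1.04, and MVD1 of the mevalonate route, in the stretch, at -1.47. ERG10 and IDI1, both in the stretch, were at -0.03 and 0.29. ERG12 has 4 probe sets that ran from -0.86 to 0.34, so its bar depends on the one taken. Of 22 genes known to be governed by oxygen and heme, HEM13, which uses oxygen to make heme, and ANB1, a translation factor of hypoxic cells, were called lower at -1.33 and -1.23. ROX1, the repressor of such genes, and SUT1, a regulator of sterol uptake, were called higher at 1.23 and 1.13. HEM13 read 158 and 395 in the petite and 235 and 234 in the parent, and ROX1 421 and 158 against 361 and 317.

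Reserve carbohydrate and stress genes had lower median responses in the petite. Of 19 trehalose and glycogen genes, 4 were called lower and 0 higher (median difference -0.44, median responses 0.33 in the petite and 1.04 in the parent). GPH1, glycogen phosphorylase, read 181 on xylose and 147 on glucose in the petite, against 363 and the floor in the parent, which bounds the difference at -2.27 or below (-1.43 with the floor at the 40th percentile). GSY2, the main glycogen synthase, was at -1.57, GDB1, the debranching enzyme, at -1.43, and UGP1, which makes UDP-glucose, at -1.61. TPS1, trehalose-6-phosphate synthase, was at -0.34. General stress genes (19 compared) had 5 lower and 0 higher calls and a median of -0.35. HSP12, the small membrane heat shock protein, reached nearly the same value on xylose in both strains, with 5209 in the petite and 5290.1 in the parent. On glucose it read 1352 in the petite and 322 in the parent, which gives a difference of -2.09. DDR48, a DNA damage and stress response gene, read 784 and 2393 against 1108 and 530.4, opposite responses with a difference of -2.67. GAD1, glutamate decarboxylase, was at -2.70 with 315 and 482 in the petite and 426 and 100.0 in the parent.

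Cytosolic chaperones differed further. Of 21 heat shock and chaperone genes, 7 were called lower and 1 higher, with a median of -0.53. SSA2, a constitutive Hsp70, read 158 on xylose and 1731 on glucose in the petite, against 2336 and 3647 in the parent, a difference of -2.81. SSA1 is nearly identical to SSA2, so the probe sets may share signal, and it was at -1.47. HSP104, the disaggregase, was called at -1.09 and HSP82, an Hsp90 of the stretch, at -1.03. STI1, a co-chaperone of Hsp90 and a gene of the stretch, was the higher call, at 1.86. Oxidative stress genes as a list were centred on 0.05, with 3 of 24 called lower: SOD2, the mitochondrial superoxide dismutase, at -1.41, TRX1, a thioredoxin, at -1.62, and DOT5, a thiol peroxidase, at -1.20.

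Genes of cell division had a lower median response in the petite. Of 34 compared, 5 were called lower and 0 higher, with a median difference of -0.41. A difference below 0 was read in 30 of 34, against 2817 of all 4996 genes. In the petite 6 of the 34 were at least 2-fold lower on xylose, against 1 in the parent. RNR1, the large subunit of ribonucleotide reductase, read 137 on xylose and 510.5 on glucose in the petite, against 732 and 639 in the parent, a difference of -2.09. FAR1, an inhibitor of the cell cycle kinase, read 98.8 and 474 against 329 and 383. HUG1, an inhibitor of ribonucleotide reductase that DNA damage induces, differed through the glucose side. It read 171 and 943 in the petite and 90.8 and 93.0 in the parent, a difference of -2.43. The G1 cyclin CLN1 was at -1.08 and SWI5, a factor of late mitosis, at -1.37.

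Ribosome and translation genes showed small shifts with few calls. Of 81 cytosolic ribosomal protein genes, 63 had a difference below 0, against 2817 of all 4996 genes. The median was -0.23, while 4 were called higher (RPP2A, RPL3, RPS15 and RPS7A) and 0 lower. All 4 lie in the stretch, and many ribosomal protein genes have near-identical copies. Ribosome biogenesis (66 genes, 1 higher, 2 lower, median -0.18) and RNA polymerase I and III (23 genes, 1 higher, 0 lower, median -0.30) were similar. RLP7, a ribosome assembly factor, accounts for the higher biogenesis call at 3.67 and lies in the stretch.

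Amino acid genes varied by pathway. All 6 histidine genes compared had differences below 0, with a median of -0.93 and 2 called. HIS1, the enzyme that starts the pathway, read 156 on xylose and 579 on glucose in the petite, against 807 and 1294 in the parent, a difference of -1.22, and HIS2 was at -1.29, or -0.78 with the higher floor. HIS4 was lower on xylose in both strains alike, at -0.03. Aromatic genes had 3 of 16 called lower (ARO7, TRP4 and TRP5) and a median of -0.47. TRP4 was at -1.40, or -0.61 with the higher floor, which ends its call. MET17, a sulfhydrylase that makes homocysteine, was called lower at -2.11, or -1.66 once the running median was removed. LYS20, homocitrate synthase, was already higher on xylose in the parent and more so in the petite, with 4632 and 679.8 against 3645 and 1519, a difference of 1.51. PUT4, the proline permease, was low in all but 1 sample, at 122 and 141 in the petite and 1015 and 99.3 in the parent. It lies in the stretch, and its difference was -3.56. ALA1, an alanyl-tRNA synthetase of the stretch, had the lowest value of all genes named, -4.38. It read 487 on xylose and 684 on glucose in the petite, against 1132 and 76.2 in the parent, so that the parental glucose array alone was low.

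Alpha-factor genes read lower on xylose in both strains and more so in the petite. MF(ALPHA)1, in the stretch, read 258 on xylose and 3314 on glucose in the petite, against 2380.2 and 3561 in the parent, a difference of -3.10. MF(ALPHA)2, outside it, read 143 and 1401 against 313 and 1408, a difference of -1.12. The agglutinin anchor gene AGA1, in the stretch, was called at -2.32, and the alpha-cell receptor gene STE3 was at -0.32. In all, 3 of 13 mating genes were called lower and 0 higher.

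Genes with higher petite responses outside the stretch belonged to several functions. PHO84, the high-affinity phosphate transporter, read 2966 on xylose and 218 on glucose in the petite, against 2470.4 and 2197 in the parent. The petite glucose value was the low one of 4, and the difference was 3.60. Among the 4 arrays, SPL2, an inhibitor of low-affinity phosphate uptake, was bright on petite xylose alone. It read 509 and the floor in the petite and 84.0 and 65.5 in the parent, a difference of at least 2.69. On the oxygen-limited glucose array SPL2 read 506. PHO89, a sodium-coupled phosphate transporter, read 1030.2 and 137 against 340.1 and 128, and PHO90, a low-affinity one, was called lower at -1.08. The phosphate list as a whole (15 genes, 3 higher, 1 lower) had a median of 0.66, which was 0.04 on values as deposited and 0.09 among genes above the floor on all 4 arrays.

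Among the 4 arrays, PIR3, a cell wall protein, was high on petite xylose alone, with 4645 there and 393 on petite glucose. The parent read 221 and 154, and the difference was 3.04. On the oxygen-limited arrays PIR3 read 3461 on xylose and 253 on glucose. AQY3, of the aquaporin and glycerol channel family, followed the order of PIR3 on the 4 arrays, with 2367 and 238 against 205 and 116. Its difference was 2.49. TIP1, a mannoprotein of the cell wall, went the other way, with 777 and 3331 against 3167 and 2021, a difference of -2.75. BAP2, a permease for branched-chain amino acids, was at 1.93, and the transcription factor ACA1 at 1.98 or above. Among autophagy and vacuole genes (37 compared, 3 higher, 1 lower, median -0.07), ATG8, the protein that marks autophagic membranes, read 849 and 270.2 in the petite against 199.9 and 189 in the parent, and ATG1, the initiating kinase, was at 1.15. RPN4, the activator of proteasome genes, read 870.1 and 269.8 against 278 and 266, a difference of 1.63. The 35 proteasome genes had a median of 0.19, with 29 above 0, against 2179 of all 4996 genes. Of these 35, 3 were called higher, and among the 3 RPN4 alone lies outside the stretch.

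Iron genes included calls in both directions. Of 26 compared, 3 were higher, 3 lower and 20 neither, with a median of 0.37, or 0.15 outside the stretch. FET3 and FTR1, the oxidase and permease of high-affinity iron uptake, and the reductase FRE1 were called lower, at -1.68, -1.05 and -1.13. FET3 read 359.8 on xylose and 988 on glucose in the petite, against 1885 and 1619.9 in the parent, so that both petite values lay below both parental ones. The siderophore genes ARN2, ENB1 and FRE3 were called higher, and ENB1 and FRE3 lie in the stretch.

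The largest difference of all was that of NCE103, carbonic anhydrase, which supplies bicarbonate. It read 2985 on xylose and 253 on glucose in the petite, against 869 and 2403 in the parent, opposite responses that differ by 5.03. NCE103 lies in the stretch, which holds 9 of the 15 highest genes and 5 of the 15 lowest by the naming rule.

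**Figure D5:**
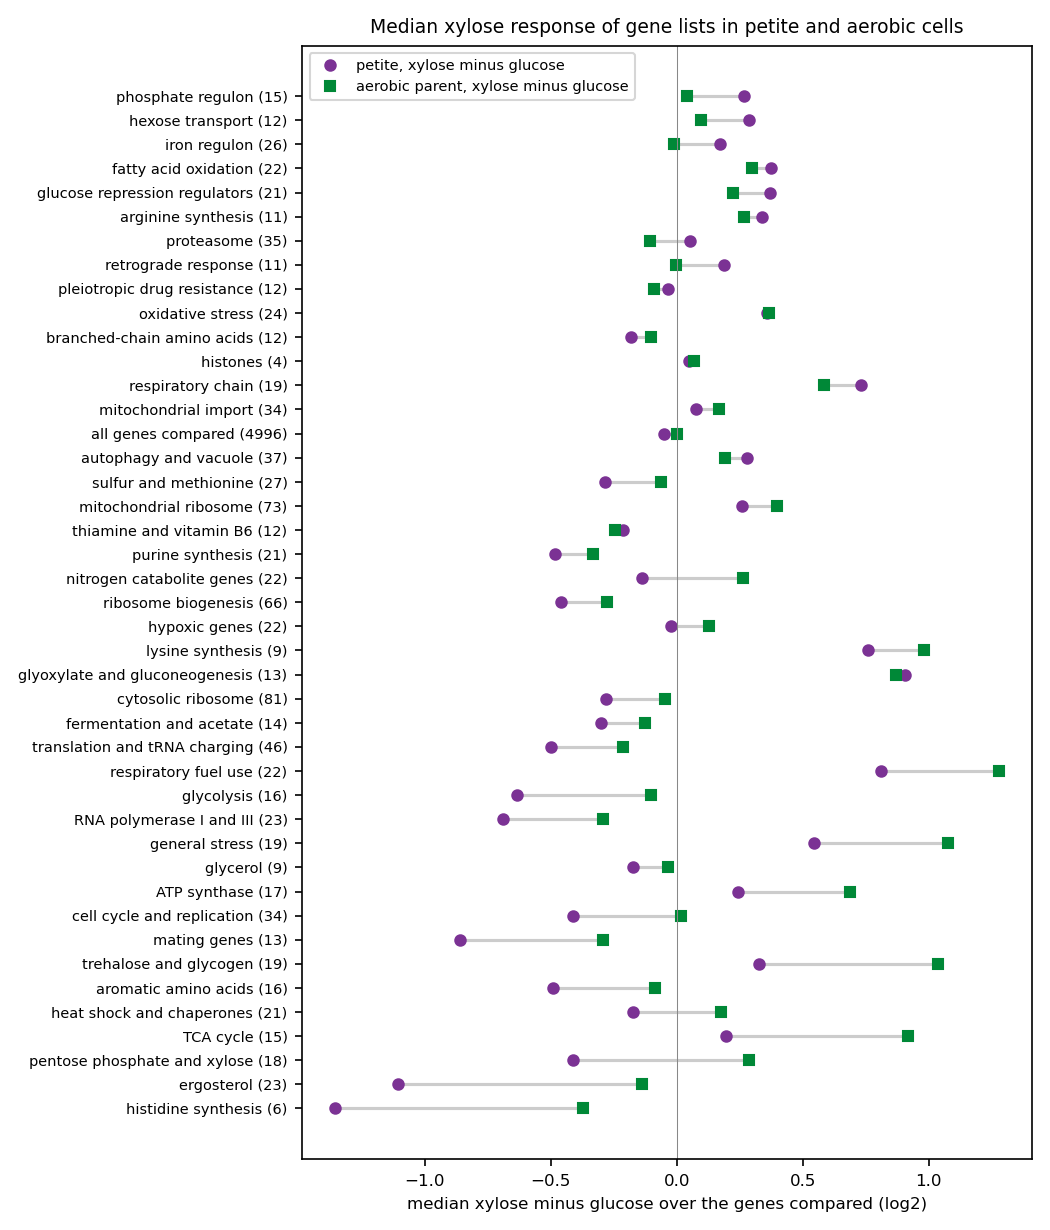
Circles give the median xylose minus glucose difference (log2) in the petite and squares that in the aerobic parent for each gene list, with the number of genes compared in brackets, ordered by the median of the difference between the responses. Histidine, sterol, pentose phosphate and TCA lists lie at the bottom with the petite to the left of the parent, and phosphate and hexose transport genes lie at the top.

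Levels in the 2 strains on each sugar showed which side carried a call. A lower call can come from a petite that read below the parent on xylose, above it on glucose, or both. Of the 253 lower calls, 161 passed 2-fold on the xylose side only, 47 on the glucose side only, 2 on both and 43 on neither. For the 227 higher calls the mirror-image numbers were 138, 29, 8 and 52. DDR48, HUG1 and PHO84 are examples in which the petite glucose array stood apart, ERG2, GND1, ACO1 and SOL3 examples in which the petite xylose array did, and ADH2 and TDH1 examples in which the parental glucose array was the farthest from the rest.

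The oxygen-limited pair of the same strain offers another response to set beside these, although it was grown at 40 g/L and harvested at an OD600 of 30. ADH2 had a response of -0.35 there, with 139 on xylose and 176 on glucose, beside -0.35 in the petite. The levels differed, since ADH2 read 1051 and 1342 in the petite. PIR3 had a response of 3.77 and AQY3 of 2.20 under oxygen limitation, RPN4 of 1.76 and ATG8 of 1.62, and in these 4 the aerobic parent had the smallest response of the 3 pairs. ACO1 was higher on xylose by 1.37 and SDH1 by 2.13 under oxygen limitation, unlike in the petite. The sterol list had a median of -0.33 and the TCA list of 1.16 in that pair. PHO84 was at -2.74 there, opposite in direction to the petite.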

How the data were processed

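The series holds 6 arrays, of which 4 were used for the comparison. All 6 entered the scaling, the floor and the choice of probe set. The authors deposited 1 linear intensity per probe set and array, and how they averaged and scaled it is not given in the sources at hand. Total RNA was reverse transcribed from an oligo(dT) primer, per the labels' protocols. Controls (60 probe sets) and 1 probe set lacking a value were set aside from the 9335. Of the remaining 9274, 6504 had 1 gene symbol (all matched to RefSeq), 328 had several and 2442 none, which gave 5656 genes. Gene names come from the platform annotation, and no coordinates or sequences were used here.

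Arrays were brought to the same median with Python 3.11.15, numpy 2.4.6 and pandas 2.3.3. Intensities under 61.4, the 25th percentile, were raised to that floor before taking log2. For genes with several probe sets, the one of highest mean was kept. A gene was called at 2-fold if its value, or its bound where an array lay at the floor, passed. The 660 genes without a value or bound were not compared. With 4 arrays and 1 per condition there are no residual degrees of freedom, so no p-value is given, and precision is limited by how few arrays there are.

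Named genes were the 15 highest and 15 lowest with a standard name whose brightest array reached 4 times the floor, up to 5 members per list and any member 2-fold against its list's median, and a set of sugar, respiratory and stress genes. The genes ACA1, BAP2, YKE4, DPI8 and the SNR genes were added after their values were seen. All members and the 43 gene lists were chosen with earlier results of these data known. Alternatives concerned the scaling, floor, threshold, probe set choice and probe set number. A description of promoter motifs was planned and not run, because no promoter sequences were used here. The calling step was tested on simulated data.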

Additional observations from a re-analysis of the deposited data

Results flagged for a closer look

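In 10 genes the responses passed 2-fold in opposite directions in the petite and the parent, and with 1 array per condition none of these differences was tested. Outside the stretch of numbering that ends at 9000 there were 3. DDR48, a stress gene, had a response of -1.61 in the petite and 1.06 in the parent, a difference of -2.67. TDH1, an isoform of glyceraldehyde-3-phosphate dehydrogenase, had -1.15 in the petite and 1.76 in the parent, a difference of -2.91. SNR41, a small nucleolar RNA gene, read 353 on xylose and 143 on glucose in the petite, against 81.1 and 163 in the parent, a difference of 2.31.

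The other 7 lie in the stretch, and all were higher in the petite and lower in the parent. NCE103, carbonic anhydrase, differed by 5.03, RLP7, a ribosome assembly factor, by 3.67, and DOM34, a factor that frees stalled ribosomes, by 2.59. CDC31, the yeast centrin, differed by 2.55, SOL1, of the 6-phosphogluconolactonase family, by 2.39, and MET4, the activator of sulfur genes, by 2.23. The thiamine transporter family gene THI72 differed by at least 2.19, since its aerobic xylose value lay at the floor. RLP7 and DOM34 have consecutively numbered probe sets with PET8, and SOL1 follows PPG1 and ABZ1. In all 6 of these genes the parental response lay between -1.23 and -2.30.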

How the results depend on the processing

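The count of 227 higher genes ranged from 166 to 300, and that of 253 lower genes from 195 to 300, over the other scalings, centring, floors, probe set choices and trend corrections at the 2-fold threshold, apart from leaving out the numbering stretch that ends at 9000. That step, chosen after seeing the data, gave 119 higher genes, and among genes lower in the parent it gave 13 lower, 13 within 2-fold and 1 higher in the petite. At a 3-fold threshold there were 70 higher and 57 lower genes. Of genes higher in the parent, 29 were then higher, 45 neither and 0 lower in the petite. Of those in neither class in the parent, 64 were higher and 40 lower in the petite, and of those lower in the parent 4 were lower, 9 neither and 0 higher. The 2 genes higher in the parent and lower in the petite became 1 under quantile normalization, with the running median removed and without the high-numbered probe sets. The 8 genes lower in the parent and higher in the petite became 5 on values as deposited and 4 with the 40th percentile floor. The 75 lower in the parent alone became 44 with that floor and 43 with the running median removed. All of these are recounts under other settings, and the cause of the changes was not tested.

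Of 42 list medians, 34 kept their sign under all alternatives, 8 changed it and 11 stayed within 1.5 times their value. The 8 were arginine, branched-chain amino acid, sulfur, histone, autophagy, mitochondrial import, oxidative stress and respiratory chain genes. Hexose transport came to 1.32 with the 40th percentile floor and 0.86 without high-numbered probe sets, arginine synthesis to -0.40 without the stretch, and the phosphate list to 0.04 on values as deposited and 0.09 with the 40th percentile floor or only genes above the floor. Sterol genes kept medians between -0.85 and -0.65 and TCA genes between -0.68 and -0.55. Of 290 named genes, 253 moved by less than the SD of 0.41 between probe sets and 0 called values changed sign. No paired analysis was possible because each condition has 1 array and the result comes from no test. The promoter motif description was not run. Genes near the floor on 1 array, such as CYB2, ICL1 and GPH1, depend on it, and unequal culture regimes limit every value.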

Other observations

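Small nucleolar and nuclear RNA genes (SNR genes), which guide the modification of ribosomal RNA or act in splicing, formed a group that was picked out after its values were seen. Of 61 on the array, 41 could be compared. A difference above 0 was read in 39 of these, against 43.6% of all genes compared. Among the 39, SNR39 is only bounded, at most 0.44, so its difference may lie below 0. At the 2-fold limit 18 were higher and 1 lower, or 15 and 0 of the 33 outside the stretch. Their median difference was 0.70 (0.68 outside the stretch), with median responses of 0.22 in the petite and -0.50 in the parent. In the parent 39 of the 41 were lower on xylose. SNR4 read 2632 on xylose and 622 on glucose in the petite, against 340.1 and 524 in the parent, a difference of 2.70. SNR34 read 295 and 112 against 73.3 and 103, a difference of 1.90. These RNAs mostly lack the poly(A) tails on which the labelling primer acts, and the part of labelling in these values was not tested. The exceptions to the higher response were SNR5 of the stretch, at most -1.69, with a parental glucose value at the floor, and SNR75 outside it, at -0.25.

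Several single genes outside the stretch also had high petite xylose values. YKE4, a zinc transporter, read 1189.7 on xylose and 239 on glucose in the petite, against 256 and 227 in the parent. DPI8, a mitochondrial protein, read 5838 and 1059 against 1432 and 1057. SNZ1 and SNO1, the neighbouring genes of vitamin B6 synthesis, were called higher together, at 1.29 and 1.05. Their list of thiamine and vitamin B6 genes (12 compared, 3 higher, 0 lower) had a median of -0.15, with 8 below 0. The call of SNO1 was lost under quantile normalization. SNZ1 read 1404 and 786 in the petite and 176 and 242 in the parent, so that both petite values exceeded both parental ones.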
